A study of Mus musculus with 65 samples.

Results

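MEI4 peaks of mouse testis chromatin were compared between mice lacking Prdm9 and wild-type mice. The members were the 80 peaks of the Prdm9KO list and the 1566 peaks of the wild-type list, 1646 of the 97260 peaks in the 24 lists of the series analysed here. A peak was shared where it overlapped a peak of the other list by at least 1 bp, and otherwise was knockout only or wild-type only. The wild-type mice were C57BL/6JCrl. The knockout mice carried the genotype labelled B6;129P2-Prdm9tm1Ymat/J (Prdm9KO), a line with part of its ancestry from a 129 strain by its name. All mice had their spermatogenesis synchronised: pups of 1.5 days post partum were fed WIN 18,466, a blocker of retinoic acid synthesis, for 7 to 10 days, and then received a single injection of retinoic acid. Whole testes were taken 8 days after that injection, when the labels put leptotene and zygotene spermatocytes at 80 to 95% of cells, and were fixed in 4% formaldehyde for 15 min. Each MEI4 group had 2 samples but 1 deposited list, so no difference between the genotypes has a replicate check. The SYCP3 list of Prdm9KO rests on 1 sample, and that of the wild type has 2. The intervals below cover the counting of peaks only. They treat peaks as independent, although 46 of the 80 knockout peaks lay in 1 region. The classes were placed against MEI4 lists of Spo11KO, Iho1KO and Hormad1KO mice, wild-type CTCF and DMC1 hotspots of wild type and Hormad1KO. They were also placed against IHO1, HORMAD1 and SYCP3 lists of wild-type, Prdm9KO, Spo11KO and Mei4KO mice. Further lists were IHO1 of Hormad1KO, HORMAD1 of Iho1KO and SYCP3 of both these knockouts. SYCP3 of Spo11KO and of Iho1KO rests on 1 sample each. A DMC1 list of Prdm9KO was not analysed here.

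Meiotic recombination begins with programmed DNA breaks made by SPO11. MEI4 works with REC114 and IHO1 to license those breaks on the chromosome axis, of which HORMAD1 and SYCP3 are structural parts. PRDM9 is a DNA-binding histone methyltransferase that sets where breaks form in mice, and without it breaks form at other places, many of them promoters. DMC1, the meiosis-specific recombinase, loads on the resected ends of breaks, so its peaks mark hotspots. CTCF is an architectural DNA-binding protein and served as a comparison outside the break machinery. The pseudoautosomal region, the short stretch that X and Y share, is known to gather MEI4, REC114 and IHO1 with axis proteins, and so are the distal ends of chromosomes 4, 9 and 13 in some strains. Breaks in the pseudoautosomal region are known not to need PRDM9.

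Of the 11 promoter windows that lay whole inside Prdm9KO MEI4 peaks, 5 are printed, 250 bases before to 50 after the annotated gene start, from RefSeq on GRCm38.p6. They show promoter DNA only, a small part of the DNA under the peaks. Of the 80 knockout peaks, 17 lay within 1 kb of the start of a protein-coding gene. Sequence outside promoter windows was not available here. Each is written 5′ to 3′ on the strand of its gene, with every CpG dinucleotide in capitals. Ccr2 (chr9:124101933-124102232, plus strand) and Ccr3 (chr9:124021721-124022020, plus strand) are chemokine receptor genes under shared peaks. Lztfl1 (chr9:123717576-123717875, minus strand), Fyco1 (chr9:123851850-123852149, minus strand) and Samd11 (chr4:156255293-156255592, minus strand) lay under knockout-only peaks. They were chosen after their values were seen. Both shared windows are CpG-poor, as were all 4 windows touching shared peaks. Of the 3 knockout-only windows, those of Lztfl1 and Fyco1 are among the richer in CpG. The Samd11 window lies below the median of all windows, and knockout-only windows with fewer CpGs are not printed.
Ccr2: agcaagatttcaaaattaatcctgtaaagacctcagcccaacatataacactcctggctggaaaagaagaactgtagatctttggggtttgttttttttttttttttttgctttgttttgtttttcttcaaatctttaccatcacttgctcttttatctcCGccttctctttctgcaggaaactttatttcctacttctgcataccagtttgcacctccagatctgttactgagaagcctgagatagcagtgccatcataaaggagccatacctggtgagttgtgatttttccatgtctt
Ccr3: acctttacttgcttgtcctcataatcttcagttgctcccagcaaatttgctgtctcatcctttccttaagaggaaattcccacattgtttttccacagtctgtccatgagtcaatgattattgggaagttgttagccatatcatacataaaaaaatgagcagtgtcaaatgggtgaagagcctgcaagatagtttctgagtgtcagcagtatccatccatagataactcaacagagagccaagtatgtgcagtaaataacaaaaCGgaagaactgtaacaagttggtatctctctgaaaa
Lztfl1: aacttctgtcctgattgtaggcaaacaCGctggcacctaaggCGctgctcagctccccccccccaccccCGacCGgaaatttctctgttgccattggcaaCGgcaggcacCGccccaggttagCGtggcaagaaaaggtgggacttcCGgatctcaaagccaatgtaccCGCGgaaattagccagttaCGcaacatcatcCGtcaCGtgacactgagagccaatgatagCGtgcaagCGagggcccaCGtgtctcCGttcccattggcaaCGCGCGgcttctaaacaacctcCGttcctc
Fyco1: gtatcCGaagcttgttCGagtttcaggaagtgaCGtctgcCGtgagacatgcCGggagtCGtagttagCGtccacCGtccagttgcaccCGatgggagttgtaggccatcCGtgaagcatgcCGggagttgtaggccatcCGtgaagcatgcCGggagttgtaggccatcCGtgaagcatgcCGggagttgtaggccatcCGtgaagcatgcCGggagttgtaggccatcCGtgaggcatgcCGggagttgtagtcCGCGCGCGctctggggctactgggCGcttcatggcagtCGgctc
Samd11: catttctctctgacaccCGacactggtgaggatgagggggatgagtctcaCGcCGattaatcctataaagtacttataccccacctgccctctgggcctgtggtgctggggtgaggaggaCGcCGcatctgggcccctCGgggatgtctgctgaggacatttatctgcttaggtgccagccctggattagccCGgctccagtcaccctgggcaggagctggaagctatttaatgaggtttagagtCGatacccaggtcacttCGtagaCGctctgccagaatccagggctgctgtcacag

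Ccr2 and Ccr3 had 1 CpG each in 300 bases, a count that 95.4% of the 21263 promoter windows of protein-coding genes in the table reached or passed. Samd11 had 10 CpGs, a count reached or passed by 56.8% of those windows, Lztfl1 had 21 and this Fyco1 window had 25. As many as in that Fyco1 window stood in 24.8% of those windows. The 13 windows touching knockout peaks, of 12 genes, had a median of 6 CpGs with a range of 0 to 30, against a median of 13 and quartiles of 4 and 24 over all windows in the table. The 4 windows at shared peaks, of Ccr1, Ccr1l1, Ccr3 and Ccr2, had 1 to 3 CpGs. The promoters under the peaks thus ran from nearly free of CpG to CpG-rich. The Fyco1 window also held a repeated stretch. The 20 bases gggagttgtaggccatccgt stood there 5 times at a spacing of 30 bp on the strand of the gene, and 13 of the 21263 windows (0.0611%) had any stretch of 20 bases in as many copies that did not overlap.

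Without PRDM9 the MEI4 list was short and most of it was already present in the wild type. Of the 80 knockout peaks, 45 were shared (56.2%, Wilson 95% interval 45.3 to 66.6%) and 35 were knockout only. Counted over the wild-type list, 25 of 1566 peaks were shared (1.60%, 1.08 to 2.35%) and 1541 were wild-type only. The 2 shared counts differ because 11 wild-type peaks each held more than 1 knockout peak, up to 5, which together took 31 of the 45. In base pairs, 58.4% of the 355741 bp under knockout peaks lay inside wild-type MEI4 peaks, and 5.47% of the 3799335 bp under wild-type peaks lay inside knockout peaks. Shared wild-type peaks were wide, with a median of 5052 bp against 1932 bp for wild-type-only peaks. Shared knockout peaks had a median of 2254 bp and knockout-only peaks of 1869 bp. The overlap depends on these widths: with each peak reduced to a 1 kb window at its centre, 21.2% of the knockout peaks were shared.

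The knockout peaks lay almost all at the distal ends of 5 chromosomes. In the distal 2 Mb, counted back from the last position that any list reached on a chromosome, chromosome 9 held 46 of them, Y held 13, X held 6, chromosome 4 held 4 and chromosome 13 held 1. These 5 ends were singled out because knockout peaks lay there, so the values below describe them and test nothing. They took 70 of the 80 knockout peaks (87.5%, 78.5 to 93.1%) and 53 of the 1566 wild-type peaks (3.38%, 2.60 to 4.40%). The ends of the other chromosomes held 0 knockout peaks and 23 wild-type peaks. In the 5 ends, 24 of the 53 wild-type MEI4 peaks were shared (45.3%), and outside them 1 of 1513 was (0.0661%). The loss of wild-type peaks was therefore nearly complete outside the ends and partial inside them.

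**Figure D1:**
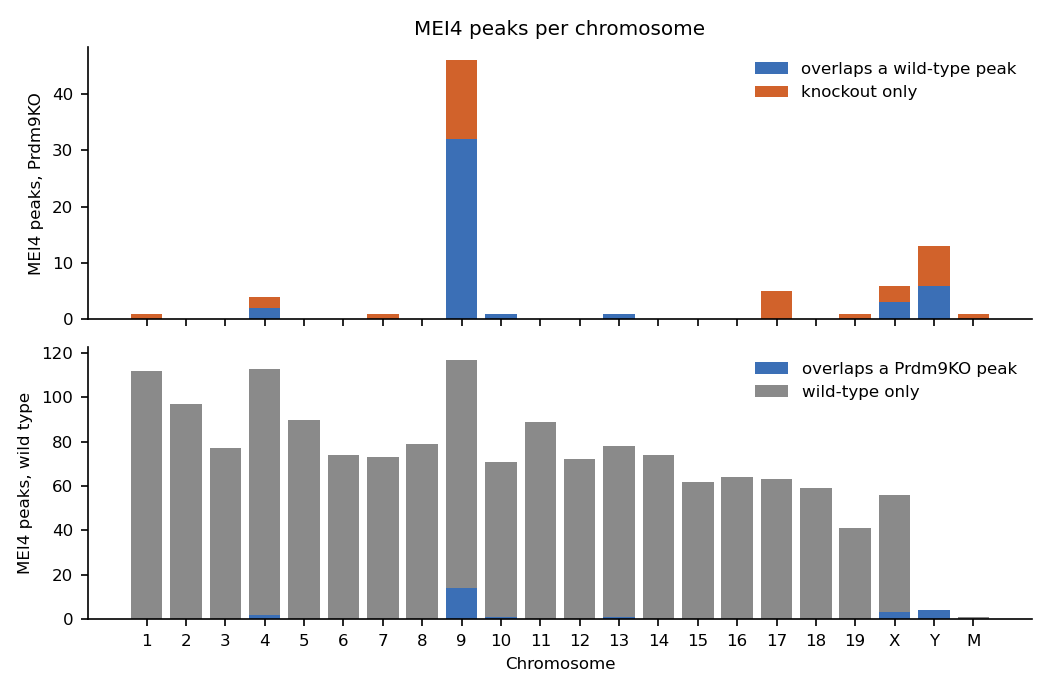
MEI4 peaks on each chromosome (horizontal axis, M is the mitochondrial chromosome) in Prdm9KO (upper panel, number of peaks) and in the wild type (lower panel, number of peaks on another scale), with shared peaks in blue. In Prdm9KO 46 peaks stand on chromosome 9 and 13 on Y, while wild-type peaks, nearly all wild-type only, stand on every autosome and on X.

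Over all chromosomes, 26 of the 35 knockout-only peaks (74.3%) and 52 of the 1541 wild-type-only peaks (3.37%) were in a distal 2 Mb. The difference was 70.9 percentage points (Newcombe 95% interval 54.5 to 82.5), and the interval excluded 0. All 26 lay in the 5 ends singled out above, so this difference describes the same peaks and is no separate test. Knockout-only peaks were also close to wild-type MEI4 peaks there. All 26 knockout-only peaks of the 5 ends had a wild-type MEI4 peak within 100 kb, at a median gap of 9092.5 bp and a range of 623 to 64710 bp. When MEI4 peaks within 100 kb of each other were joined into 1 region, no knockout-only region was left in a distal 2 Mb (0 of 7) and the difference was -2.11 points. At that scale the knockout-only peaks at the ends were parts of domains that the wild type also had.

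The distal end of chromosome 9 held the largest group. Its 46 knockout peaks spanned chr9:123685783-124494847, 809 kb, ending 0.248 kb before the last position of any list on that chromosome. Of these, 32 were shared and 14 were knockout only. The wild type had 20 MEI4 peaks in the same span, of which 14 were shared. Knockout peaks covered 286013 bp, or 35.4% of the span, and wild-type peaks covered 30.5%. Of all knockout-peak base pairs in the distal 2 Mb of chromosome 9, 63.9% lay inside wild-type peaks, and 72.5% of the wild-type base pairs there lay inside knockout peaks. The 2 genotypes therefore covered similar parts of this domain. Across the chromosome as a whole, by contrast, 103 of 117 wild-type peaks were wild-type only.

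**Figure D2:**
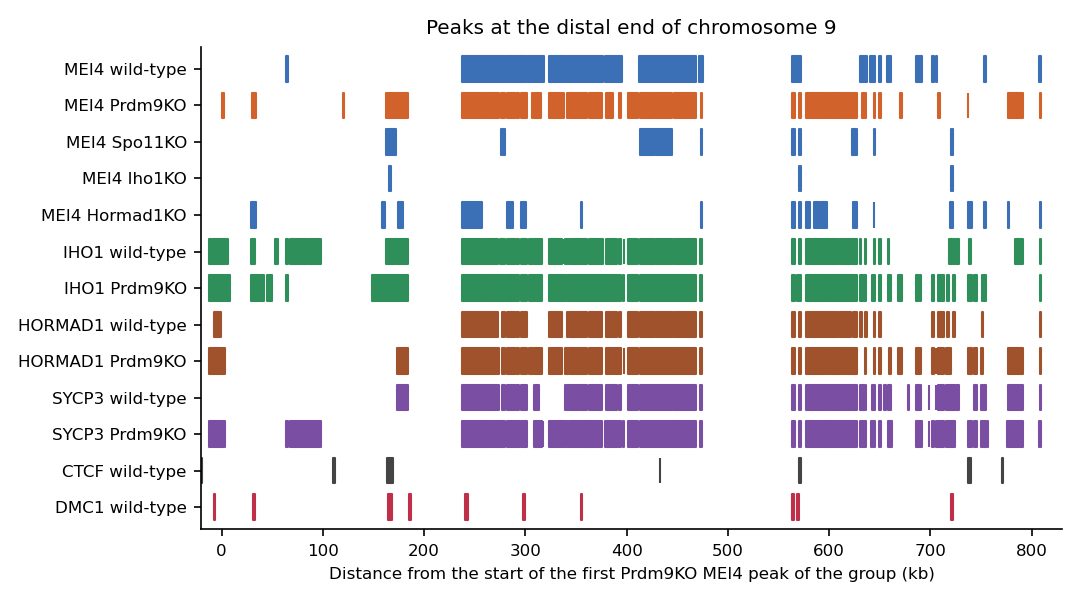
Peaks of 13 lists at the distal end of chromosome 9, by distance in kb from the start of the first Prdm9KO MEI4 peak (horizontal axis); each bar is a peak drawn to its width, with Prdm9KO MEI4 in orange. The MEI4 bars of wild type and Prdm9KO cover much of the same middle stretch, together with IHO1, HORMAD1 and SYCP3 of both genotypes, while the 9 DMC1 hotspots and 6 CTCF peaks of the span are narrow and few.

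The chromosome 9 domain carries a cluster of chemokine receptor genes, which guide immune cells. The widest shared wild-type peak, chr9:124098338-124154347, was 56010 bp wide, covered the start of Ccr2 and held 3 knockout peaks. The next widest, chr9:123923109-123966150, was 43042 bp wide, reached into Ccr1 and held 5 knockout peaks. Another, chr9:124027088-124062860, was 35773 bp wide, reached into Ccr3 and also held 5. The other two of the 5 widest, chr9:124009151-124026369 at the start of Ccr3 and chr9:124063998-124080822 in no annotated gene, were 17219 and 16825 bp wide. The 5 widest knockout-only peaks stood on the flanks of this block or between its wild-type peaks, also on chromosome 9. They were chr9:124262663-124285922 (23260 bp, Gm39469), chr9:124462550-124476786 (14237 bp, Ppp2r3d) and chr9:124287127-124298017 (10891 bp, 2010315B03Rik), with chr9:123858908-123869586 (10679 bp, Xcr1) and chr9:123848144-123858398 (10255 bp, Fyco1 and Xcr1). Xcr1 encodes a chemokine receptor of dendritic cells and Fyco1 an adaptor for the transport of autophagosomes. All 5 overlapped wild-type IHO1 and 4 of them overlapped Prdm9KO IHO1, the exception being the peak on Ppp2r3d.

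The ends of the sex chromosomes came next. On Y, 13 knockout peaks stood in chrY:90718888-90810873, 92.0 kb, of which 6 were shared, and all 4 wild-type MEI4 peaks there were shared. Knockout peaks covered 26179 bp and wild-type peaks 15234 bp. On X, 6 knockout peaks stood in chrX:169986385-170816888, 830.5 kb, of which 3 were shared, beside 4 wild-type peaks of which 3 were shared. They included a peak in Mid1, the ubiquitin ligase gene that crosses the border of the pseudoautosomal region, and a shared peak at the start of Asmt, which encodes the last enzyme of melatonin synthesis. On Y, 2 shared peaks lay in the Mid1 pseudogene Mid1-ps1. Parts of these stretches are near-identical between X and Y, reads may be split or shared between the copies, and how reads with several matching places were treated is not given in the sources used here.

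On chromosome 4, 4 knockout peaks stood in chr4:156154185-156357863, 203.7 kb, of which 2 were shared and 2 were knockout only. The 6 wild-type peaks of that span covered 60300 bp against 6555 bp in the knockout, and 2 of them were shared. One knockout-only peak, chr4:156254402-156255842, lay at the start of Samd11, printed above. At chromosome 13 the single knockout peak, chr13:119426108-119427976, was shared and lay within 1 kb of the start of Paip1, which encodes a regulator of translation. The wild type had 5 MEI4 peaks in that distal 2 Mb. Coverage thus differed between the ends: the knockout covered more base pairs than the wild type on 9 and Y, and fewer on 4, 13 and X.

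**Figure D3:**
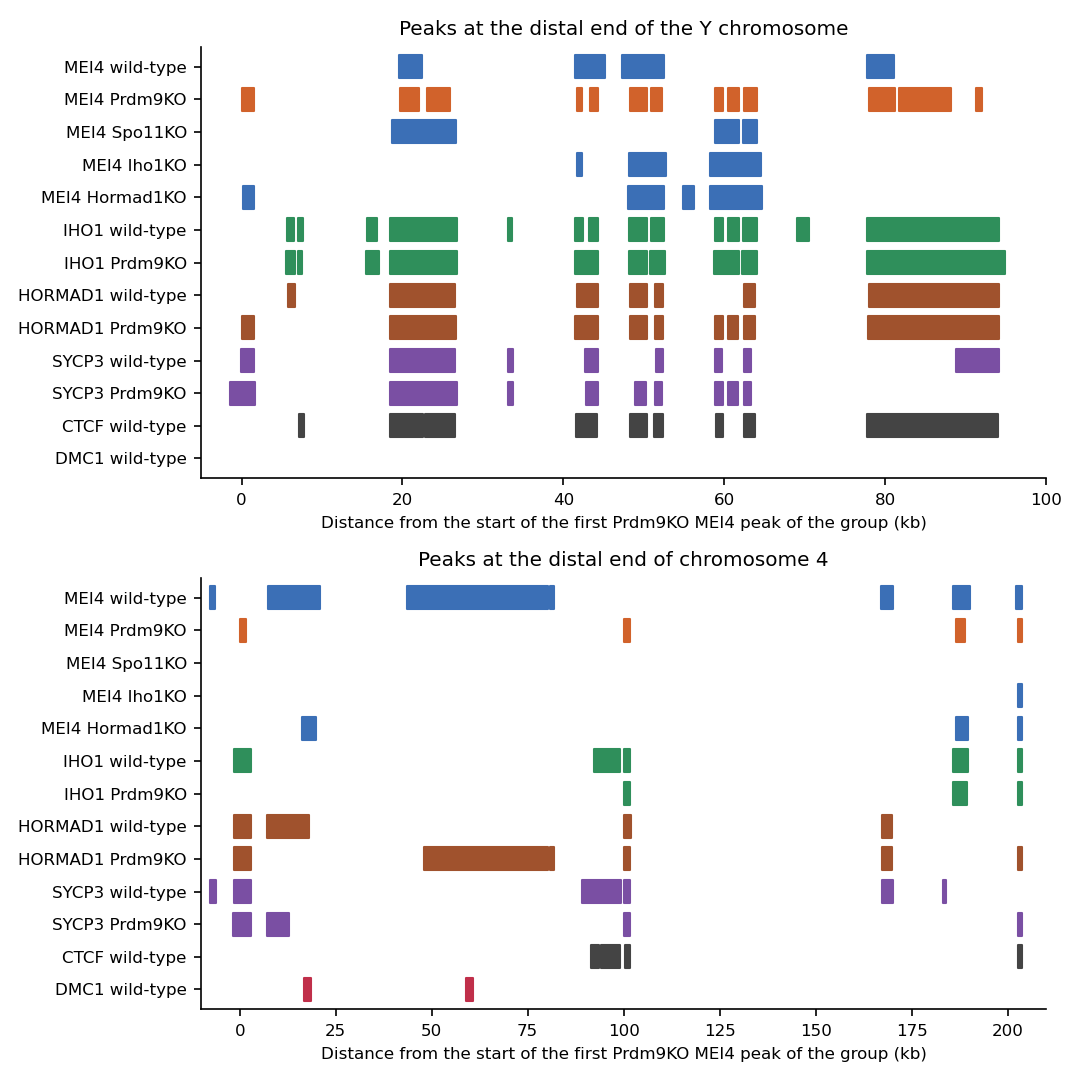
Peaks of 13 lists at the distal ends of the Y chromosome (upper panel) and of chromosome 4 (lower panel), by distance in kb from the start of the first Prdm9KO MEI4 peak of each group; each bar is a peak drawn to its width, with Prdm9KO MEI4 in orange. On Y the 13 knockout peaks mostly stand over IHO1, HORMAD1 and CTCF bars and no DMC1 hotspot is listed, and on chromosome 4 the 4 knockout peaks are narrow beside the wild-type MEI4 bars.

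The classes were opposite in their relation to DMC1 hotspots. Of the 1541 wild-type-only peaks, 1505 (97.7%) overlapped a wild-type hotspot, against 3 of 35 knockout-only peaks (8.57%) and 5 of 25 shared wild-type peaks. The difference from the wild-type-only class was -89.1 points (-94.7 to -75.3) for knockout-only peaks and -77.7 points (-88.8 to -58.5) for shared peaks, and both intervals excluded 0. The list had 0 hotspots in the X and Y spans, so the 6 and 13 knockout peaks there could not overlap one. On the autosomes alone the differences were -85.5 and -70.2 points. Read from the hotspots, 8 of the 13808 wild-type hotspots (0.0579%) carried a knockout MEI4 peak and 1513 (10.96%) carried a wild-type one. The list of hotspots of Hormad1KO gave the same order, with 91.4% of wild-type-only, 8.57% of knockout-only and 12.0% of shared wild-type peaks.

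The few hotspots under knockout peaks were weak beside those under wild-type-only peaks and near the middle of the whole hotspot list. The deposited DMC1 value, whose unit the authors did not name, ranged from 55.5 to 229 at the 8 knockout peaks on hotspots, at ranks 5056 to 10320 of 13808, and none was in the strongest 25%. Over all 13808 hotspots the median was 129, and 3 of the 8 lay above it. At the wild-type-only peaks its median was 1514, and 1420 of the 1505 (94.4%) were in the strongest 25%. Of these 8 knockout peaks, 6 were on chromosome 9. Their values were 229 at chr9:123923144-123943379, 132 at chr9:124248977-124251746, 125 at chr9:123715839-123719330 in Lztfl1 and 103.5 at the peak on Fyco1, with 76 at chr9:123981326-123986951 in Ccr1l1 and 57 at chr9:124040656-124042342. The peak on chromosome 13 had 193.5. The last of the 8, chr17:3083043-3083809, had 55.5 and lay in the pseudogene Pisd-ps2. Lztfl1 encodes a protein of cilium transport. In the other direction, MEI4 peaks at the strongest hotspots had no counterpart in the knockout list. The 3 hotspots of highest value had wild-type-only MEI4 peaks: chr11:89608041-89615045 in Ankfn1 (20822.5), chr2:38135283-38141147 in Dennd1a (20513.5) and chr1:68487722-68489953 in Erbb4 (18961). Each of these also overlapped wild-type IHO1, HORMAD1 and SYCP3, and none overlapped any of these proteins in Prdm9KO.

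**Figure D4:**
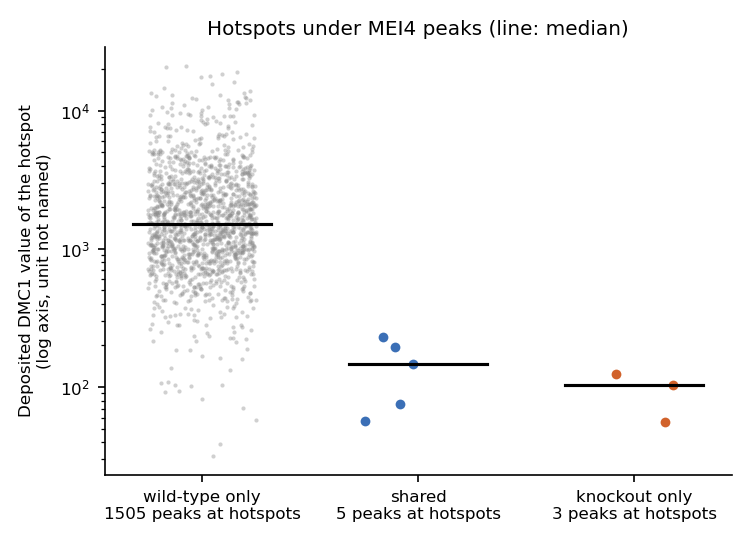
Deposited wild-type DMC1 value (vertical log axis, unit not named) of the hotspot under each MEI4 peak that overlaps one, by class, with each point a peak and the line the median. The 5 shared wild-type peaks and the 3 knockout-only peaks at hotspots stand at values of 55.5 to 229, far below the median of 1514 of the 1505 wild-type-only peaks.

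MEI4 peaks that stood without PRDM9 mostly overlapped peaks of the other proteins in samples of the same genotype. Of the 80 knockout peaks, 71 (88.8%) overlapped an IHO1 peak of Prdm9KO, 63 (78.8%) a HORMAD1 peak and 60 (75.0%) an SYCP3 peak, and 53 overlapped all 3. These proteins covered much of the chromosome 9 span, which held 46 of the 80. There, Prdm9KO peaks of IHO1 covered 45.7% of the bases, SYCP3 44.3% and HORMAD1 39.1%. How often a peak placed anywhere in that span would overlap them was not tested. Read from the other lists, MEI4 stood at 13.8% of the 378 IHO1 peaks, 5.45% of the 1009 HORMAD1 peaks and 7.91% of the 607 SYCP3 peaks of Prdm9KO. At the knockout-only peaks IHO1 had a share of 77.1%, HORMAD1 of 71.4% and SYCP3 of 60.0%. At the wild-type-only peaks they were 0.973%, 1.23% and 1.10%. By definition, knockout-only peaks were called in Prdm9KO and wild-type-only peaks were not, which favours higher shares in the former. The differences of 76.2 (60.0 to 87.0), 70.2 (53.7 to 82.4) and 58.9 points (42.5 to 73.4) excluded 0, but their direction is not independent of that definition. They were smaller away from the ends: without the distal 2 Mb they were 55.3 points for IHO1, 21.8 for HORMAD1 and 22.1 for SYCP3, over 9 knockout-only peaks, and with MEI4 peaks joined within 100 kb they were 56.7, 27.8 and 28.1. Within the knockout list, knockout-only peaks overlapped these proteins less often than shared ones for IHO1 (by -20.6 points, -36.9 to -6.36) and SYCP3 (-26.7 points, -44.6 to -7.33). For HORMAD1 the difference was -13.0 points and its interval, -31.3 to 5.01, included 0.

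These proteins gathered at the 5 ends in Prdm9KO too, though to a smaller part of their lists than MEI4. The ends held 81 of 378 IHO1 peaks (21.4%), 77 of 607 SYCP3 peaks (12.7%) and 86 of 1009 HORMAD1 peaks (8.52%) of Prdm9KO. In the wild type they held 7.36% of IHO1, 4.34% of SYCP3 and 4.72% of HORMAD1 peaks. CTCF had 0.404% and DMC1 hotspots 0.521% of their peaks there. In counts, the ends held 117 IHO1 peaks in the wild type and 81 in Prdm9KO, 83 and 77 of SYCP3, and 81 and 86 of HORMAD1. MEI4 had 53 and 70. In base pairs the ends held 543416 bp under IHO1 peaks in the wild type and 566065 bp in Prdm9KO, 402152 and 501494 bp under SYCP3, and 425700 and 594006 bp under HORMAD1. MEI4 went the other way, from 424741 to 336284 bp. Peaks of IHO1, SYCP3 and HORMAD1 at the ends were wider in Prdm9KO, with a mean of 6988 bp against 4645 bp for IHO1, 6513 against 4845 bp for SYCP3 and 6907 against 5256 bp for HORMAD1, while MEI4 peaks were narrower at 4804 against 8014 bp.

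The wild-type proteins also stood with the shared peaks more often than with the wild-type-only ones. Of the 25 shared wild-type peaks, 23 overlapped wild-type IHO1 (92.0% against 26.0% of wild-type-only peaks), a difference of 66.0 points (48.9 to 72.2). For HORMAD1 the shares were 76.0% and 28.2%, a difference of 47.8 points (28.3 to 60.5), and for SYCP3 76.0% and 45.4%, a difference of 30.6 points (11.1 to 43.4). Chromosome 9 carried much of this. Without it the HORMAD1 difference was 25.8 points with an interval that included 0, and the SYCP3 difference was -0.16 points. Shared wild-type peaks that overlapped wild-type IHO1 (23), HORMAD1 (19) or SYCP3 (19) all overlapped the same protein in Prdm9KO. These MEI4 peaks were wide, with a median of 5052 bp. Of the 25, 14 lay in the chromosome 9 span, where the Prdm9KO lists of these proteins cover much of the DNA. The share of all wild-type peaks of each protein found again in Prdm9KO is not given here, so this retention has no background beside it.

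At the hotspots that lost MEI4, the other proteins were nearly absent from the knockout lists as well. Those lists were also shorter as a whole than in the wild type. IHO1 had 378 peaks against 1589, HORMAD1 1009 against 1715 and SYCP3, from 1 knockout sample, 607 against 1911. Of the 1505 wild-type-only peaks at hotspots, 385 overlapped IHO1, 420 HORMAD1 and 682 SYCP3 in the wild type, and 2, 8 and 4 did in Prdm9KO. In all, 10 of the 1505 (0.664%, 0.361 to 1.22%) overlapped any of the 3 in Prdm9KO, and 5 of those 10 lay at a CTCF peak. In the wild type, the proteins followed the DMC1 value across these peaks. In the lowest of 3 equal groups by value (32 to 1088.5), 2.19% overlapped IHO1, 2.59% HORMAD1 and 9.36% SYCP3. In the middle group the shares were 10.2%, 14.3% and 42.2%. In the highest group (2190 to 20822.5) they were 64.5%, 66.9% and 84.4%. In Prdm9KO every one of these shares was at or below 1.20% in each group. Peaks of the highest group were also wider, with a median of 2689 bp against 1565.5 bp in the lowest.

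The 36 wild-type-only peaks away from hotspots differed from those at hotspots. Of these, 18 lay in the 5 ends, and 15 of those 18 (83.3%, 60.8 to 94.2%) overlapped IHO1, HORMAD1 or SYCP3 in Prdm9KO. Of the 18 elsewhere, 2 did. Over all 36, IHO1 was at 15 in the wild type and at 13 in Prdm9KO, HORMAD1 at 14 and 11, and SYCP3 at 17 and 13. The same protein was listed in both genotypes at 9 of the 36 for IHO1, 7 for HORMAD1 and 9 for SYCP3. At the ends, 19 of the 29 wild-type-only MEI4 peaks overlapped at least 1 of these proteins in Prdm9KO. That count does not ask whether the wild type had the same protein there.

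**Figure D5:**
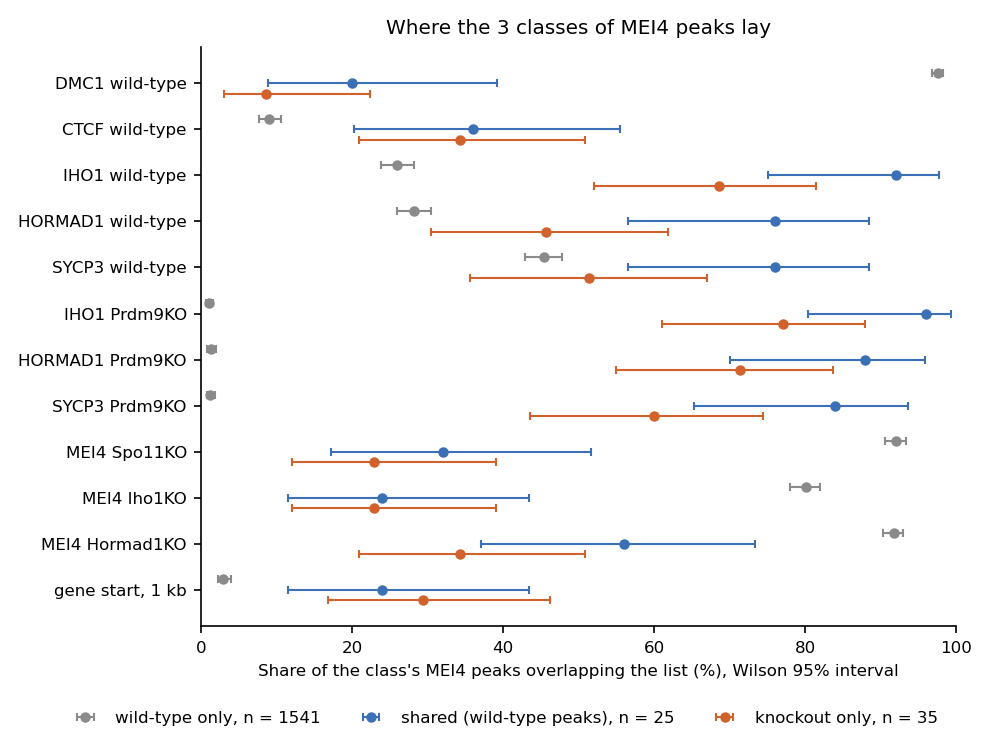
Share of each class of MEI4 peaks (horizontal axis, percent) that overlaps each list, or a protein-coding gene start within 1 kb, with points for shares and bars for Wilson 95% intervals. Wild-type-only peaks (grey) stand near 100% at DMC1 hotspots and near 0 at the Prdm9KO lists, while shared wild-type peaks (blue) and knockout-only peaks (orange) stand the other way round; gene starts leave out 1 knockout-only and 60 wild-type-only peaks, those on chromosome 18 and on mitochondrial DNA, whose starts were not used here.

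MEI4 lists of other knockouts, in which PRDM9 is present, held most wild-type-only peaks and a smaller share of the shared ones. All 3 lists were longer than the wild-type one, with 3817 peaks in Spo11KO, 2679 in Iho1KO and 3828 in Hormad1KO against 1566. Wild-type-only peaks were found in the MEI4 list of Spo11KO at 92.1%, of Iho1KO at 80.1% and of Hormad1KO at 91.8%, and 1149 of the 1541 (74.6%) were in all 3. Shared wild-type peaks were found at 32.0%, 24.0% and 56.0%. The differences, -60.1 (-74.9 to -40.4), -56.1 (-68.7 to -36.5) and -35.8 points (-54.7 to -18.4), excluded 0. Knockout-only peaks were found at 22.9%, 22.9% and 34.3%, and 19 of 35 were in none of the 3. The ends differed in Hormad1KO. Its list had 8 of the 14 shared wild-type peaks at the end of chromosome 9 and 1 of 4 on Y. It had 2 of 2 on chromosome 4, 3 of 3 on X and 0 of 1 on chromosome 13. Together the 5 ends held 56 MEI4 peaks in Hormad1KO, 20 in Spo11KO and 22 in Iho1KO, against 53 in the wild type. In the chromosome 9 span, MEI4 peaks covered 7.03% in Spo11KO, 0.717% in Iho1KO and 10.2% in Hormad1KO, against the 35.4% in Prdm9KO. Spo11KO mice make no programmed breaks, Iho1KO mice lack the partner of MEI4 on the axis, and Hormad1KO mice lack an axis protein. In Mei4KO mice, IHO1 peaks stood at 15 of the 80 places of Prdm9KO MEI4 (18.8%), HORMAD1 peaks at 22 (27.5%) and SYCP3 peaks at 9 (11.2%). At the wild-type MEI4 peaks these Mei4KO lists had 1.15%, 3.58% and 1.53%. On chromosome 9, IHO1 of Mei4KO stood at 1 of the 46.

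CTCF peaks lay under more of the retained and knockout-only peaks than under those that were lost, and the sex chromosomes accounted for most of them. CTCF overlapped 12 of 35 knockout-only peaks (34.3%), 9 of 25 shared wild-type peaks (36.0%) and 139 of 1541 wild-type-only peaks (9.02%). The differences of 25.3 (11.7 to 41.9) and 27.0 points (11.2 to 46.5) excluded 0. By chromosome, 11 of 13 knockout peaks on Y, 5 of 6 on X, 2 of 4 on chromosome 4 and 4 of 46 on chromosome 9 overlapped CTCF. On the autosomes alone both differences were 7.59 points, with intervals that included 0. Some CTCF peaks there ranked high by the authors' score. The CTCF peak under chr9:124256311-124257866 had a score of 31.4 and ranked 2 of 32676, and that under chrX:169993198-169995451 had 11.2 and ranked 10.

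Those places stood in many lists. The knockout peaks overlapped a median of 12 of the other 22 lists, with a range of 0 to 20. The peak chr17:3083043-3083809 overlapped 20 of them, among them CTCF at rank 6, as did chrX:169993198-169995451, and chr9:124256311-124257866 overlapped 19. Wild-type-only peaks overlapped a median of 8 and at most 18. Most of the 22 lists are of MEI4 in other knockouts, of IHO1 or of axis proteins. How far the recurrence of a place in so many lists bears on its MEI4 peak was not tested.

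Gene starts lay within 1 kb of 10 of 34 knockout-only peaks (29.4%) and of 43 of 1481 wild-type-only peaks (2.90%), a difference of 26.5 points (13.9 to 43.3), with peaks of chromosome 18 and mitochondrial DNA left out. This rested on chromosome 9. Without that chromosome 2 of 20 knockout-only peaks were at a start and the difference was 7.17 points, with an interval that included 0. Outside the distal 2 Mb 0 of 8 were. With each peak reduced to a 1 kb window at its centre, 7 of 62 were, and the difference was 9.41 points. In all, 28 of the 80 knockout peaks lay on 20 protein-coding genes, 14 of them on chromosome 9. Beside those named above, chromosome 9 had Cxcr6 and Nlrp4g, the former a chemokine receptor gene and the latter a member of the NLR family.

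Outside the 5 ends stood 10 knockout peaks, of which 1 was shared. The shared one, chr10:81453893-81454894, overlapped no other list of the 22. Chromosome 17 had 5 of the 10, 3 of them in one group at chr17:6412302-6493546, 81.2 kb, where the wild type had 0 MEI4 peaks. These 3 lay in Gm29719 and in the pseudogene Ppp1r2-ps5, and the nearest wild-type MEI4 peak of any of them was 1369511 bp away. One peak lay in Muc6, a mucin gene on chromosome 7, and overlapped IHO1 in both genotypes. Another, chr19:36942532-36950627 in Btaf1, was 8096 bp wide and overlapped 0 of the 22 lists. The peak chrM:19-4656 was on mitochondrial DNA, which the meiotic machinery is not known to occupy. It overlapped MEI4 of Iho1KO and Hormad1KO only, and the wild type had 1 MEI4 peak on mitochondrial DNA, 10716 bp away by coordinate. These 10 peaks overlapped a median of 1 of the 22 lists and 5 of them overlapped none of IHO1, HORMAD1 and SYCP3 in Prdm9KO, against 1 of the 70 in the ends.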

How the data were processed

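ChIP-seq peak lists of synchronised mouse testes were analysed as deposited, 1 list per group. Alignment and peak calling used Bowtie2 and MACS2 with build mm10, per the submitters' processing notes; thresholds, pooling of replicates and treatment of reads with several matching places are not given in the sources used here. MEI4 data had the Mei4KO signal subtracted, as the series' design text states. The authors deposited positions for each peak, a score for each CTCF peak and a signal value for each DMC1 hotspot. These 2 kinds of value served only for ranking inside a list. Depth could not be read from the files. Overlap of at least 1 bp set the classes. Shares have Wilson and differences have Newcombe 95% intervals; an interval that excluded 0 is stated as such. No p-value was computed, since peaks are not replicates. Gene starts are those of 17492 protein-coding genes in the RefSeq promoter table (GRCm38.p6), without chromosome 18, used because mm10 and GRCm38 share coordinates. Code was Python 3.11.15 with pandas 2.3.3 and was tested on simulated intervals. Named sites were the groups of at least 2 knockout peaks within 1 Mb, all knockout peaks at hotspots, the 5 widest knockout-only and shared peaks and the 3 wild-type-only peaks of highest DMC1 value; the knockout peaks outside the 5 ends and single peaks with many overlaps were added after their values were seen. Members, lists and tests were chosen with earlier results of these data known. Alternatives were overlap of 50%, 1 kb centre windows, autosomes only, the wider 50% of each list, joining within 100 kb, a distal window of 5 Mb, and leaving out distal ends, chromosome 9 or mitochondrial DNA; the latter 2 were chosen after seeing the data.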

Additional observations from a re-analysis of the deposited data

How the results depend on the processing

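Of 117 alternative values for 14 results, 94 kept their direction and side of the threshold (or, for untested shares, moved less than their interval). Knockout peaks found in the wild type were 21.2% with 1 kb windows at peak centres, 10.0% without the distal 2 Mb and 38.2% without chromosome 9. Wild-type peaks found in the knockout were 0.578% after joining within 100 kb, 0.0671% without the distal 2 Mb and 0.759% without chromosome 9. The CTCF difference of knockout-only peaks lost its call at 7.59 points (autosomes), 0.39 (joined) and 1.98 (no distal 2 Mb), and that of shared peaks at 7.59 (autosomes). Leaving out the distal 2 Mb left 1 shared wild-type peak by construction, which turned the shared differences to -9.13 for CTCF, -25.9 for IHO1, -28.0 for HORMAD1 and -45.2 points for SYCP3. Without chromosome 9 HORMAD1 was 25.8 and SYCP3 was -0.16 points. SYCP3 also lost its call at 15.9 (1 kb windows), 16.2 (wider 50%) and 26.6 points (joined). Gene starts gave -6.73 (joined), -2.59 (no distal 2 Mb) and 7.17 points (no chromosome 9), and the distal share gave -2.11 (joined). Beyond the losses of peaks that these settings make, the cause was not tested. The differences in DMC1 hotspots and in the 3 Prdm9KO proteins kept their call under every alternative run, though HORMAD1 fell to 21.8 and SYCP3 to 22.1 points without the distal 2 Mb.

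No paired analysis was possible because each group has 1 deposited list, and for the same reason leaving out a replicate was not run. Depth and peak strength are unknown, so a place with no peak in the Prdm9KO list is not shown to lack MEI4. Intervals treat neighbouring peaks as independent.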
